A study of Mus musculus with 5 samples.

Results

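The 10 genes described here load and start the replicative DNA helicase: Mcm2, Mcm3, Mcm4, Mcm5, Mcm6 and Mcm7, which encode the helicase subunits, the loading factors Cdc6 and Cdt1, the loading inhibitor Gmnn, and Mcm10. They were taken by symbol from a count table of 22869 genes, and each was represented by its transcript row with the most reads. Cells were cut by laser from the region between the villi of the proximal jejunum at postnatal day 0, and their RNA was amplified and sequenced. The 3 control libraries carried the genotype Dnmt1 L/+, with no Cre named, and came from Ki67-positive areas. The 2 mutant libraries carried Dnmt1 L/L with VillinCre and came from Ki67-negative areas of littermates. Villin-driven Cre acts in the gut epithelium, so other captured cell types were not targeted. Loss of Dnmt1 and the choice of areas that lack a proliferation marker cannot be told apart in any comparison below.

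Replication origins are licensed before S phase, when the origin recognition complex, Cdc6 and Cdt1 load the MCM2-7 ring onto DNA as an inactive double hexamer. Cdc45 and the GINS complex then join the ring to form the active helicase, and Mcm10 takes part in that step. Geminin, the product of Gmnn, binds Cdt1 and prevents a second round of loading. In the newborn intestine the epithelium between the villi is the proliferating compartment, and MCM proteins are commonly used as markers of cells that are cycling or ready to cycle.

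The controls held 13356901, 13101286 and 10530200 reads over 1 row per gene, and the mutants held 8730268 (mutant 4) and 10260760 (mutant 6). Dnmt1 was 115 ± 17.8 CPM (TMM-normalized counts relative to library size; SD, n = 3) in controls and 39.1 ± 1.93 CPM (SD, n = 2) in mutants. Mki67, the gene of the stain used to choose the areas, was at 773 to 1022 CPM in controls and 506 and 511 CPM in mutants, so its transcript was lower in the mutants but still present (edgeR adjusted p = 0.00284). Ddx3y, the transcript of the Y chromosome examined here, had 757, 764 and 791 reads in controls and 1 and 0 in mutants. Xist went the other way, at 2.96 to 4.26 CPM in controls and 900 and 639 CPM in mutants 4 and 6. By these transcripts the controls were male and the mutants female, so sex cannot be told apart from genotype. Whether every library stands for a separate mouse is not stated, so p-values measure only library-to-library spread, part or all of which may be technical.

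Of the 10 genes, 3 fell in the mutants (Mcm4, Mcm6 and Mcm10), 1 rose (Mcm2) and 6 did not pass the test. A gene counted as changed where its adjusted p in edgeR's quasi-likelihood test, with Benjamini-Hochberg adjustment over all 19353 rows tested, was under 0.05. Among all 14572 genes tested, 4.17% fell and 6.11% rose by the same rule. The median log2 fold change of the 10 genes, mutant over control, was -0.34, and that of all genes tested was -0.0072. In CPM, both mutants lay below all controls in 6 of the 10 genes and above them in 1, against 21.8% and 21.7% of all genes tested. For Mcm5 and Cdt1, which are among these 6, the groups overlapped on the deposited FPKM. In bulk samples such as these, fewer cycling cells and less RNA per cell cannot be told apart. Without mutant 4 or without mutant 6, which leaves 1 mutant library assumed to vary as the controls do, 0 of the 10 genes passed edgeR's test in either direction, and 4 and 3 had an unadjusted p under 0.05.

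**Figure D1:**
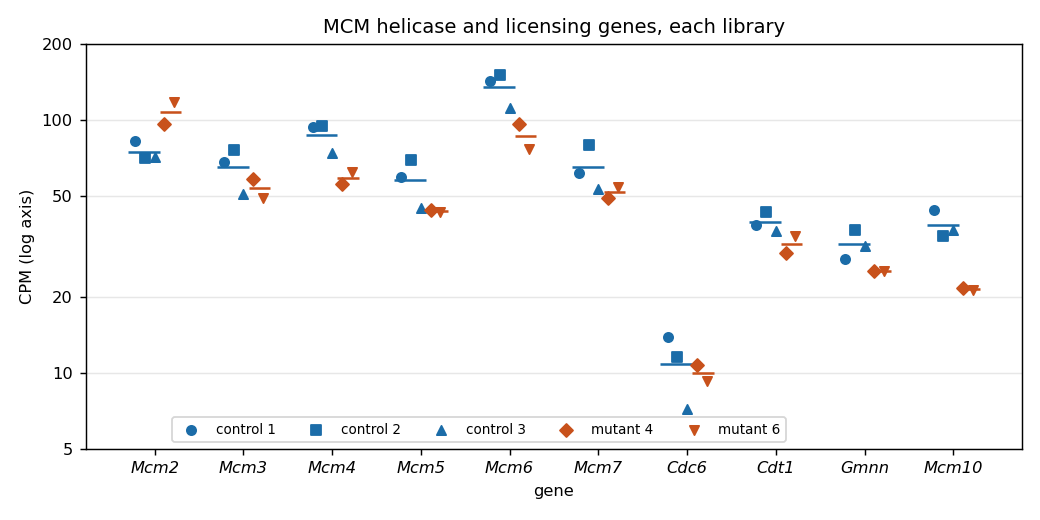
Level of each of the 10 genes in every library, in CPM on a log axis; circles, squares and triangles are controls, diamonds and inverted triangles are mutants, and short lines are group means. The mutants lie above all controls for Mcm2 and below all controls for Mcm4, Mcm5, Mcm6, Cdt1, Gmnn and Mcm10.

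**Figure D2:**
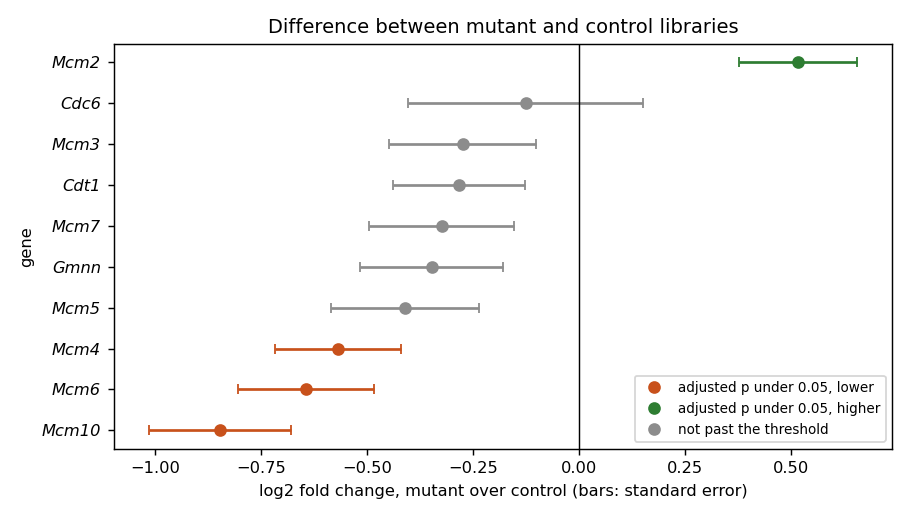
Log2 fold change, mutant over control, with its standard error as a bar, for the 10 genes in order of size; colour marks the adjusted p of edgeR's test. Mcm2 stands at 0.52 and the other 9 genes between -0.85 and -0.13.

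Mcm2 encodes a helicase subunit whose tail also binds histones. It was the only subunit of the ring that rose. Its levels were 82.4, 70.6 and 71.7 CPM in the 3 controls, against 96.3 and 118 CPM in mutants 4 and 6. Both mutants were above every control, and mutant 6 was the higher of the pair. The log2 fold change was 0.52 ± 0.14 (SE; edgeR adjusted p = 0.0307). The adjusted p was 0.0510 without control 2, 0.0519 without control 3, 0.0622 without mutant 4 and 0.318 without mutant 6, so each of these 4 libraries was needed for the call; over the 15 alternatives tried the adjusted p ran from 0.0076 to 0.325 and the log2 fold change from 0.36 to 0.65.

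Mcm6 and Mcm4, which form part of the catalytic core of the ring together with Mcm7, fell. Mcm6 was at 142, 151 and 112 CPM in the 3 controls, against 96.2 and 76.5 CPM in the 2 mutants. Its log2 fold change was -0.65 ± 0.16 (edgeR adjusted p = 0.0203), and the call was lost without control 1 (-0.61; adjusted p = 0.0816), mutant 4 (-0.82; 0.0515) or mutant 6 (-0.49; 0.218) and on the deposited FPKM (-0.64 to -0.62; 0.241 to 0.354). Mcm4 was at 93.6, 94.9 and 74.1 CPM in the 3 controls, against 55.8 and 62.2 CPM in the 2 mutants. Its log2 fold change was -0.57 ± 0.15 (edgeR adjusted p = 0.0264), and the adjusted p was 0.108 without control 1, 0.0576 without control 2, 0.223 without mutant 4 and 0.0955 without mutant 6. For both genes control 3 was the lowest control and still above both mutants.

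The other 3 subunits did not pass the test. Mcm5 was at 59.4, 69.2 and 45.1 CPM in the 3 controls, against 43.9 and 43.3 CPM in the 2 mutants (log2 fold change -0.41 ± 0.17; edgeR adjusted p = 0.158). The groups were separated only by the small gap between control 3 and mutant 4, and without control 3 the fall passed the test (-0.56; adjusted p = 0.0280). Mcm7 was at 61.7, 79.7 and 53.4 CPM in the 3 controls, against 49.4 and 54.3 CPM in the 2 mutants (-0.32 ± 0.17; edgeR adjusted p = 0.246). Mcm3 was at 68.3, 76.0 and 50.8 CPM in the 3 controls, against 58.4 and 49.2 CPM in the 2 mutants (-0.28 ± 0.17; edgeR adjusted p = 0.340). For Mcm3 and Mcm7 control 3 lay between the mutants, so the groups overlapped. The Mcm7 gene overlaps Ap4m1 and the microRNA genes Mir25, Mir93 and Mir106b in the RefSeq annotation of GRCm38.p6, and whether reads were counted by strand is not given in those sources. Whether Mcm4 and Mcm6 moved further than Mcm3, Mcm5 and Mcm7 was not tested.

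Levels of different genes were compared on the deposited FPKM, which are scaled to transcript length. In the controls Mcm6 had the highest mean (42.1 ± 10.8 FPKM), followed by Gmnn (30.9 ± 1.75), Mcm7 (22.8 ± 5.80), Mcm4 (22.1 ± 4.16), Mcm2 (21.9 ± 2.05), Mcm3 (20.3 ± 5.01), Mcm5 (16.2 ± 3.58) and Cdt1 (16.2 ± 0.804), each as mean ± SD over 3 libraries. Mcm10 (10.6 ± 2.10 FPKM) and Cdc6 (1.81 ± 0.756 FPKM) were the lowest. Neighbours in this order overlapped between libraries except for 3 steps: from Gmnn to Mcm7, from Cdt1 to Mcm10, and from Mcm10 to Cdc6. Within each control library Mcm6 was the highest and Mcm5 the lowest of the 6 subunits, while the other 4 changed places from library to library.

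The make-up of the summed MCM2-7 level differed between the groups. Mcm2 made up 14.9%, 12.8% and 18.6% of the summed FPKM of the 6 subunits in the 3 controls, against 23.3% and 28.6% in mutants 4 and 6. Mcm6 made up 29.0%, 30.4% and 26.9% in the 3 controls, against 23.9% and 20.5% in the 2 mutants. Shares of a library add to the whole, so these 2 differences are not independent: a larger Mcm2 share leaves less for the other subunits. Mcm2 was the most abundant subunit in mutant 6 and came second to Mcm6 in mutant 4. The sum itself was 163, 163 and 111 FPKM in the 3 controls, against 120 and 119 FPKM in the 2 mutants, so control 3 was lower than either mutant. FPKM is a level of RNA and says nothing of how many complete rings the cells held.

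**Figure D3:**
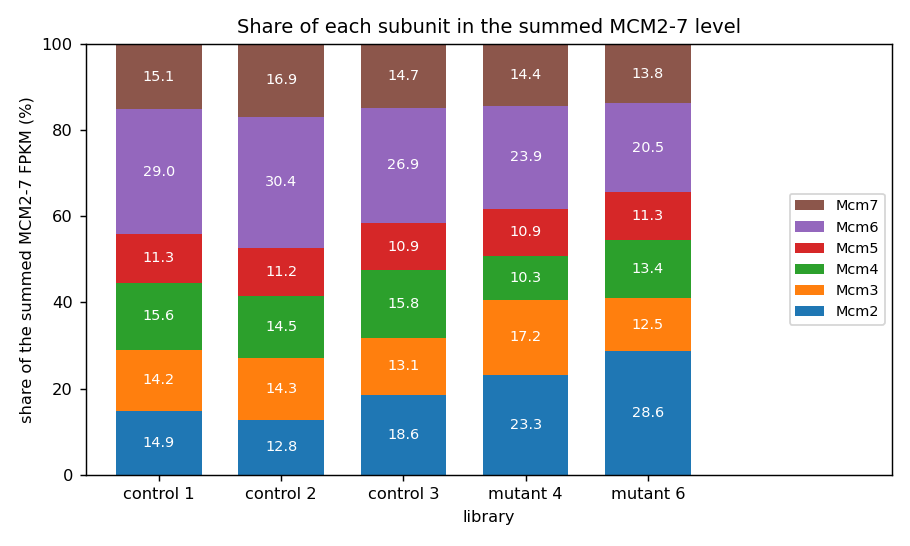
Share of each of the 6 subunits in the summed MCM2-7 FPKM of each library, in percent; each bar is 1 library and adds to the whole. The Mcm2 share runs from 12.8% to 18.6% in controls and is 23.3% and 28.6% in mutants.

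The log2 level of Mcm2 relative to the mean of Mcm3 to Mcm7 was taken in each library, on log2 CPM with a prior count of 2. It was 0.04, -0.36 and 0.18 in the 3 controls, against 0.72 and 1.07 in the 2 mutants, which were both above every control. The difference was 0.94 log2 units (two-sided exact permutation test over the 5 libraries, p = 0.1, the smallest that 3 against 2 libraries can give). It lay between 0.77 and 1.12 when any 1 library was left out and was 0.89 on log2(FPKM + 1). This ratio was chosen with the rise of Mcm2 already known.

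Cdc6, the ATPase that joins Cdt1 in loading the ring, had the fewest reads of the 10 genes. Controls 1 to 3 had 251, 195 and 102 reads and the mutants 121 and 120, or 13.8, 11.5 and 7.18 CPM against 10.7 and 9.26 CPM. The mutants lay inside the range of the controls. The log2 fold change was -0.13 ± 0.28 (edgeR adjusted p = 0.817), and it was above 0 on the deposited FPKM and without control 1. At this depth and spread no difference was detectable.

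Cdt1 was at 38.5, 43.1 and 36.3 CPM in the 3 controls, against 29.8 and 34.7 CPM in the 2 mutants (log2 fold change -0.28 ± 0.16; edgeR adjusted p = 0.267). Gmnn was at 28.3, 36.8 and 31.6 CPM in the controls and at 25.3 CPM in both mutants (-0.35 ± 0.17; edgeR adjusted p = 0.211). In CPM both genes lay below all controls in both mutants, by small margins, and neither passed the test. On the deposited FPKM the groups overlapped for Cdt1. Of the 3 loading genes 0 passed edgeR's test, DESeq2 or limma-voom, and 0 had an unadjusted p under 0.05 in edgeR. The log2 level of Cdt1 relative to Gmnn was 0.44, 0.23 and 0.20 in the 3 controls, against 0.24 and 0.45 in the 2 mutants. The groups overlapped, and their difference of 0.05 log2 units was smaller than the SD within either group (0.13 and 0.15; two-sided exact permutation test, p = 0.5). Without mutant 6 it was -0.06. On log2(FPKM + 1) it was 0.22, with p = 0.1 in the same exact permutation test, the smallest that 3 against 2 libraries can give. The size of the difference thus depended on the unit, and the test cannot show that the ratio differed in either unit.

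Mcm10, which is not a subunit of the ring despite its name, showed the largest fall of the 10 genes. Its levels were 44.2, 34.7 and 36.8 CPM in the 3 controls, against 21.6 and 21.3 CPM in the 2 mutants. The mutants were close to each other and well below every control. The log2 fold change was -0.85 ± 0.17 (edgeR adjusted p = 0.00592). The call was lost without mutant 4 (adjusted p = 0.0550) or mutant 6 (0.0528) and on the deposited FPKM (0.106 to 0.192), with a log2 fold change between -0.90 and -0.74 over the 15 alternatives.

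Mcm10 relative to the mean of Mcm2 to Mcm7 was -0.87, -1.32 and -0.81 log2 units in the 3 controls, against -1.55 and -1.57 in the 2 mutants. Both mutants were below every control, by 0.56 log2 units in the means. The mean of Mcm2 to Mcm7 includes Mcm2, which rose, so part of this difference comes from Mcm2. Mcm10 relative to Mcm3 to Mcm7 alone was not tested. The two-sided exact permutation test gave p = 0.2, where 0.1 is the smallest possible, because control 2 stood near the mutants.

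The rest of the replication machinery was described from a list of 61 other genes, all of which were tested, each by its transcript row with the most reads. Of these, 11 fell, 1 rose and 49 did not pass, with a median log2 fold change of -0.25. The shares over all genes tested were 4.17% that fell and 6.11% that rose. Of the 61 values, 51 were below 0, as were 7398 of the 14572 over all genes tested. In the origin recognition complex, which marks the sites of loading, 1 of 7 genes fell. This was Orc1, a subunit whose level is tied to the cell cycle, at 14.0 ± 2.13 CPM in controls and 8.15 ± 0.729 CPM in mutants (-0.78 ± 0.23; edgeR adjusted p = 0.0470). The call was lost with RLE and upper-quartile normalization, the stricter filter of 5 CPM, limma-voom and the deposited FPKM, and without any 1 library other than control 3. The list's median was -0.06.

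Among 10 genes that control licensing, 3 fell. Ccna2, a cyclin of S phase and mitosis, was at 198 ± 11.8 CPM in controls and 110 ± 2.02 CPM in mutants (-0.85 ± 0.13; edgeR adjusted p = 0.000913). Cdk2, its kinase partner, changed by -0.62 ± 0.17 (edgeR adjusted p = 0.0298), and Mcmbp, which binds MCM subunits, by -0.46 ± 0.13 (edgeR adjusted p = 0.0387). The median of these 10 genes was -0.26.

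Among 13 genes of helicase activation, 3 fell. Ticrr (5730590G19Rik in the table), which brings Cdc45 to the loaded ring, was at 62.8 ± 5.93 CPM in controls and 29.4 ± 5.73 CPM in mutants. Its log2 fold change of -1.10 ± 0.17 was larger in size than that of any of the 10 licensing genes or the other 60 genes (edgeR adjusted p = 0.000901). Dbf4, the activating subunit of the kinase that phosphorylates the ring, changed by -0.71 ± 0.16 (edgeR adjusted p = 0.0115). Topbp1, a scaffold of the same step, changed by -0.55 ± 0.14 (edgeR adjusted p = 0.0279). Cdc45 itself was at 19.9 ± 4.01 CPM in controls and 14.7 ± 0.486 CPM in mutants and did not pass (-0.44 ± 0.21; edgeR adjusted p = 0.211). The median of these 13 genes was -0.25.

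Among 29 genes of the replication fork, 4 fell and 1 rose, with a median of -0.28. Those that fell were Pold1 (-0.67 ± 0.19) and Pold2 (-0.66 ± 0.19), subunits of DNA polymerase delta, the DNA ligase Lig1 (-0.56 ± 0.16) and the checkpoint mediator Clspn (-0.65 ± 0.19), with edgeR adjusted p-values of 0.0411, 0.0417, 0.0430 and 0.0477. All 4 calls were lost with upper-quartile normalization, limma-voom and the deposited FPKM, and without any 1 library other than control 3; that of Clspn was also lost with RLE normalization and the stricter filter. Timeless, which stabilises forks, had 4 transcript rows, and only the row with the most reads was used. In that row Timeless was at 15.3 ± 2.87 CPM in controls and 29.3 ± 6.67 CPM in mutants. It rose by 0.94 ± 0.21 log2 units (edgeR adjusted p = 0.0116), and the call was lost without mutant 6 and on the deposited FPKM. Tipin, its binding partner, was at 26.8 ± 4.42 and 24.1 ± 0.586 CPM (-0.15 ± 0.18; edgeR adjusted p = 0.639). Pcna, the sliding clamp, was at 47.4 ± 9.68 and 38.6 ± 0.881 CPM (-0.30 ± 0.17; edgeR adjusted p = 0.299). Tipin was named after its values were seen. Mcm8 and Mcm9, relatives of the ring subunits that are not part of it, did not pass (-0.40 ± 0.34 and -0.50 ± 0.29); 0 of these 2 passed DESeq2 or limma-voom, and 0 had an unadjusted p under 0.05 in edgeR.

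**Figure D4:**
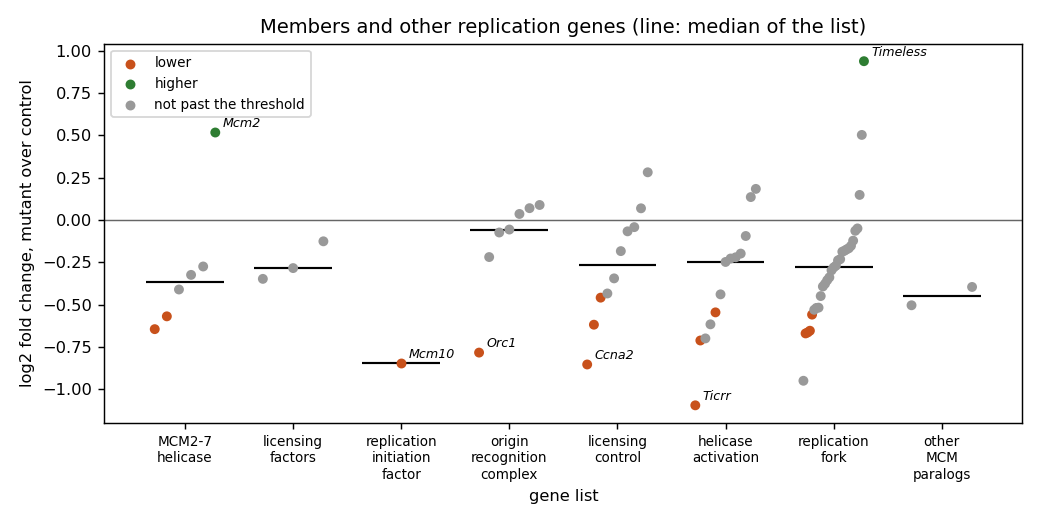
Log2 fold change, mutant over control, of each of the 10 genes (first 3 columns) and of the 61 other replication genes by list; a line marks each list's median and colour marks the adjusted p of edgeR's test. Medians run from -0.06 in the origin recognition complex to -0.45 in Mcm8 and Mcm9 among the other lists, and Mcm2 and Timeless are the genes that rose.

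The number of other replication genes that fell depended on single libraries. It was 2 without control 1, 4 without control 2 and 17 without control 3, against 11 with all libraries. The falls over all genes tested also changed with the library left out. They were 251 of 14377 without control 1, 603 of 14444 without control 2 and 645 of 14554 without control 3. With all libraries they were 608 of 14572. Ccna2 and Ticrr were among the genes that fell in each of the 3 fits without 1 control. Dbf4 was not called without control 1 or mutant 6, Topbp1 without control 1, mutant 4 or mutant 6, and Cdk2 and Mcmbp without any 1 library other than control 3; Mcmbp was also not called with upper-quartile normalization. On the deposited FPKM the only one of the 11 called was Ticrr, in 1 of the 3 fits. In those 3 fits 40 to 114 genes fell over the whole set tested, against 608 on counts.

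E2F transcription factors drive S phase genes through short sites near the gene start, and many MCM genes are textbook E2F targets. RefSeq promoter windows on GRCm38.p6, from 250 bases before to 50 bases after a gene start, were found for 8 of the 10 genes, with 2 windows for Mcm7; Mcm4 and Gmnn were not matched. The E2F word TTCCCGC was searched on both strands. The same search was made for the E2F word TTCGCGC. It was also made for the E2F word TTGCCGC, which differs from these in its middle letters. The last E2F word searched on both strands was TTGGCGC, and matches that overlapped were all counted. At least 1 of them stood in 7 of the 9 windows of these genes, which belong to 6 of the 8 genes, and in 9.57% of all 32851 windows. The 2 genes without one were Mcm2, which rose, and Mcm10, which fell furthest. Every E2F word searched contains a CpG. The windows of the 8 genes held 8 to 32 CpG, against a median of 7 over all windows. The 9.57% is thus not a share among windows of like CpG content, and enrichment of the words was not tested. A match is a run of letters, not a shown site of binding, and the absence of one says only that these letters are not in this window. The stretches below show 1 match or pair of matches for each of the 6 genes, as 30 bases read 5′ to 3′ on the gene's strand, with E2F words (some cut at the edge, some overlapping on both strands) in capitals.
Mcm3 (chr1:20820263-20820292, minus strand, after the gene start): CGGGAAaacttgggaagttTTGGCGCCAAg
Mcm5 (chr8:75109346-75109375, plus strand, before the gene start): CGCCAAgaactTTCGCGCCAAaacgtccag
Mcm6 (chr1:128359733-128359762, minus strand, before the gene start): attggacgggtTTGGCGCGAAgtagctcag
Mcm7 (chr5:138171361-138171390, minus strand, before the gene start): gcgctagcgaaTTCCCGCgtccactggaga
Cdc6 (chr11:98908002-98908031, plus strand, before the gene start): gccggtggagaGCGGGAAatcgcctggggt
Cdt1 (chr8:122568035-122568064, plus strand, after the gene start): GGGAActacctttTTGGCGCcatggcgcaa

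The Mcm2 and Mcm10 windows are shown because these genes mark the ends of the range of change and hold no E2F word. Each stretch is the 250 bases before the gene start, 5′ to 3′ on the gene's strand. Capitals mark CCAAT on either strand (reading ATTGG on the other), the box bound by NF-Y, and TTTGAA, a word of the cell cycle homology region. CCAAT stood in 37.4% and TTTGAA in 17.9% of all windows. Of the 9 windows of the 8 genes, CCAAT stood in 7, which belong to 6 genes, and TTTGAA only in that of Mcm2. In Mcm7 a CCAAT overlapped E2F words after the gene start.
Mcm2 (chr6:88898781-88899030, minus strand): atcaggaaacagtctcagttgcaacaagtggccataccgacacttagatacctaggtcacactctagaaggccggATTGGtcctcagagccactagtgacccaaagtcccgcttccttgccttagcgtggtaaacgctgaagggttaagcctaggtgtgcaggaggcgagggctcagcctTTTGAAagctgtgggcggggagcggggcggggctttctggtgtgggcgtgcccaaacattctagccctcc
Mcm10 (chr2:5012792-5013041, minus strand): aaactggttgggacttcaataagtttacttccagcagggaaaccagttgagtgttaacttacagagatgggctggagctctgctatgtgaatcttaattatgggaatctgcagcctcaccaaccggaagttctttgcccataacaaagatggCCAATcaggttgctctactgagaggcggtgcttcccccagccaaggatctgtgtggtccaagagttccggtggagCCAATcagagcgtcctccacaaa

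CpG dinucleotides, the substrate of Dnmt1, were counted in the same 300-base windows. Mcm2 had 16 and Mcm10 had 10, Mcm3 had 8, Cdc6 had 19, Mcm6 had 21, Mcm5 had 25, the 2 Mcm7 windows had 26 and 24, and Cdt1 had 32. The median of all windows was 7 and the upper quartile 20. Among the genes with a window, Mcm2 was neither the richest nor the poorest in CpG. Whether CpG content bears on its rise was not tested. No methylation was measured in these data.

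Markers of other cell types also differed between the groups. Over all genes tested, 6.11% rose, both mutants lay above all controls in 21.7%, and 3732 of 14572 had an unadjusted p under 0.05, which the counts of markers below are to be read against. Of 10 mesenchyme and smooth muscle markers, 6 rose and both mutants lay above all controls in all 10, with a summed level of 1164 to 1273 CPM in controls and 1780 and 1911 CPM in mutants. Of 7 immune markers 2 rose (summed 90.8 to 140 CPM against 239 and 258 CPM), and of 4 neuron and glia markers tested, from 7 listed, 1 rose (21.1 to 31.7 against 51.6 and 54.4 CPM). Of 6 endothelial markers 0 passed edgeR's test, DESeq2 or limma-voom and 2 had an unadjusted p under 0.05 (summed 137 to 167 against 174 and 192 CPM). Of 10 markers of absorptive enterocytes, the differentiated cells of the villus, 4 rose (20527 to 32639 against 40224 and 42147 CPM). A large part of the difference in this sum lay in 1 of the 4, Apoa4. It was at 4718 to 8347 CPM in controls and 17434 and 14973 CPM in mutants 4 and 6. Both mutants lay above all controls in 6 of the 10, and 1 had a log2 fold change below 0. Among 8 epithelial markers 1 rose and 1 fell, and their sum was 3919 to 4179 CPM in controls and 3854 and 4015 CPM in mutants. In these lists 0 markers were at 0 reads in every library. Their part in the falls of Mcm4, Mcm6 and Mcm10 and in the rise of Mcm2 was not tested.

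The profiles most like those of Mcm2 and Mcm10 over the 5 libraries were sought among 10010 genes whose log2 CPM averaged 3 or more. Likeness was the root mean square distance between log2 CPM profiles, each centred on its own mean. The nearest to Mcm2 were Zfyve16, Tspan18, Cryz, Fam114a1 and 2510002D24Rik, at 0.04 to 0.06 log2 units. None of the other 9 licensing genes was near it: the closest, Cdt1, stood at a distance of 0.41 and a rank of 6950. Among the nearest to Mcm10 were Ankrd32, Cwf19l1, Nsdhl and 6720463M24Rik, at 0.0378 to 0.0550. Mcm4 stood at rank 479 (0.21) and Mcm6 at rank 626 (0.22) from Mcm10, ahead of the other licensing genes. With 5 libraries many genes share a profile by their group difference alone. The other 9 licensing genes had log2 fold changes below 0, so their distance from Mcm2 largely restates those values. The same holds for the places of Mcm4 and Mcm6, which fell as Mcm10 did.

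The genes beside each of the 10 in the reference order were examined after the values above were seen. Beside Mcm2, Tpra1 was at 22.5 to 25.5 CPM in the 3 controls, against 32.4 and 27.9 CPM in the 2 mutants (log2 fold change 0.34; edgeR adjusted p = 0.207), and Podxl2 was at 0.592 to 2.75 CPM in the 3 controls, against 3.01 and 1.31 CPM in the 2 mutants. Prkdc, which lies next to Mcm4 and encodes a DNA repair kinase, was at 60.1 to 79.0 CPM in the 3 controls, against 71.6 and 59.6 CPM in the 2 mutants (-0.09; edgeR adjusted p = 0.747), so its groups overlapped where those of Mcm4 did not. Ube2v2, on the other side of Mcm4, stood at -0.35 (edgeR adjusted p = 0.463) and did not pass. The only neighbour that passed the test was Hmox1, beside Mcm5, which rose (1.09; edgeR adjusted p = 0.0127).

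The direction of change held for 9 of the 10 genes under each of the 15 alternatives tried, and only Cdc6 changed sign. Calls held less well than directions. Over all genes, calls were also fewer on the deposited FPKM: 40 to 114 fell and 166 to 293 rose, against 608 and 891 on counts. Mcm4, Mcm6, Mcm10 and Mcm2 each passed with the other normalizations and filters, with 1 row per gene, and with DESeq2 and limma-voom, and none passed when the deposited FPKM were used, where 0 fell and 0 rose (limma; 3 or 4 of the 10 had a log2 fold change below 0, and 0 or 1 above 0, with an unadjusted p under 0.05).

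**Figure D5:**
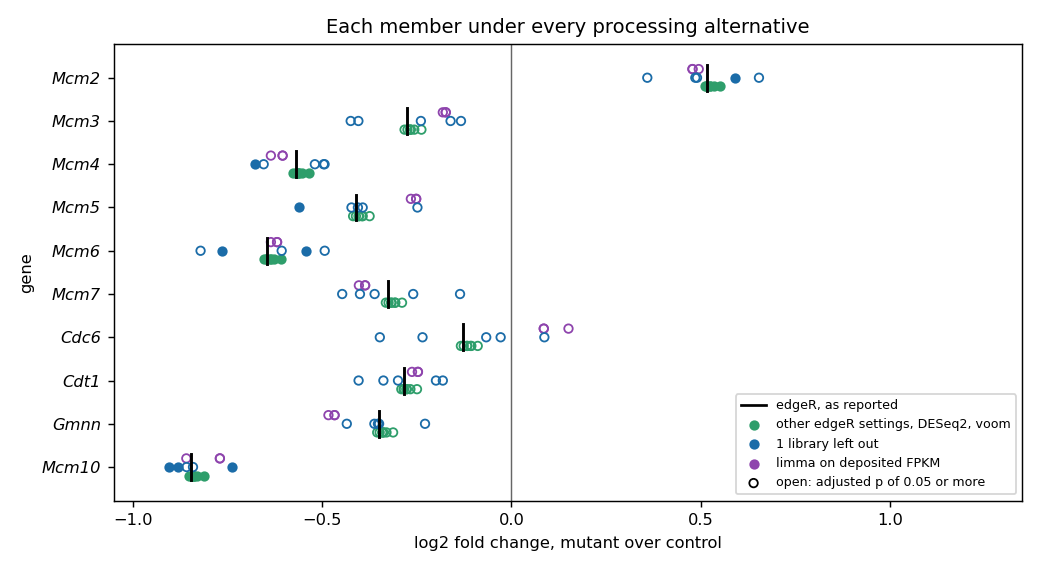
Log2 fold change of each of the 10 genes under every alternative; the black line is the value reported above, colours give the kind of alternative, and open circles did not pass the threshold. Points stay on 1 side of 0 for every gene except Cdc6, and all points from the deposited FPKM are open.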

How the data were processed

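The authors deposited a table of raw counts by transcript and another of FPKM for those transcripts, with 1 column per library. Genome build mm9 and edgeR are named in the submitters' processing notes, while no aligner or counting program is given in the sources used here. The tables had 28644 rows each. Counts were tested in R 4.3.3 with edgeR 4.0.16 (default filter on low counts, TMM, quasi-likelihood F-test, 3 residual degrees of freedom), with Benjamini-Hochberg adjustment over 19353 rows. The SE of a log2 fold change is its size over the root of its F statistic. Background shares count 1 row per gene. Alternatives used DESeq2 1.42.0, limma 3.58.1 and the deposited FPKM on a log2(FPKM + pseudocount) scale. The genes, lists and ratios were chosen with earlier results of these data known. All 10 genes are named; of the other replication lists the genes that passed, plus Orc1, Cdc45 and Pcna whatever their values; Tipin, Mcm8, Mcm9 and neighbouring genes were named after their values were seen. Marker lists are given by counts, with Apoa4 named after its values were seen. Mean ± SD are over 3 controls and 2 mutants. Replicates were not paired, since the controls and mutants share no number. A gene that the rule for like profiles selects is not reported here.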

Additional observations from a re-analysis of the deposited data

How the results depend on the processing

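With limma on log2(FPKM + 1), on log2(FPKM + 0.1), and on the first with genes at a mean of 1 FPKM or more, 0 of the 10 genes fell and 0 rose, against 3 and 1 on counts; of the other replication genes 1, 0 and 0 fell (against 11) and 0 rose (against 1), while 11 to 13 had an unadjusted p under 0.05 with a negative log2 fold change. Calls were also fewer over all genes in these 3 fits. On counts 608 of 14572 genes fell and 891 rose. On FPKM 114 of 14572, 40 of 14572 and 74 of 12425 fell, and 293, 166 and 216 rose. Rises made up 59.4% of all calls on counts and 72.0%, 80.6% and 74.5% in these 3 fits. The other replication genes that fell numbered 5 with upper-quartile normalization and 6 with limma-voom. Over all 14572 genes, 503 and 505 fell in these fits, against 608 in the fit reported above. Leaving out 1 library at a time gave 0 to 4 of the 10 genes that fell and 0 to 1 that rose, and 2 to 17 other genes that fell and 0 to 1 that rose. Cdc6 reversed to 0.086, 0.15 and 0.086 on FPKM and to 0.087 without control 1, and ranged from -0.35 to 0.087 with 1 library left out. Cdt1 relative to Gmnn ranged from -0.055 (without mutant 6) to 0.163 with 1 library left out and was 0.22 on log2(FPKM + 1). The cause was not tested for any of these; fits without 1 library also rest on fewer samples. No scaling moved the median of all genes by over 0.1 log2 units. No paired analysis was possible because the controls and mutants share no replicate number. Of the 10 genes Cdc6 had the fewest reads, 102 to 251 per library.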
